A study of Danio rerio with 6 samples.

Results

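The genes described here are 10 zebrafish genes of iridophores and xanthophores, the silvery and the yellow pigment cells of fish. They were taken by symbol from a deposited table of 25645 genes, and all 10 were found there once each: gart, paics, pnp4a, ltk, ednrba, gch2, pts, xdh, aox5 and scarb1. All 10 passed the filter on low counts. RNA sequencing compared 3 samples homozygous for pikfyve-delta8 with 3 wild-type samples. The pikfyve-delta8 allele was made with CRISPR/Cas9, and fish carrying it are described as lacking the lipid kinase domain of Pikfyve, an enzyme of late endosomes and lysosomes. The labels give no tissue, age or background strain, and do not say whether a sample was 1 fish or a pool, so the p-values reflect variation among these libraries, part of which may be technical.

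Iridophores owe their shine to stacked crystals of purines, mainly guanine, which are built from the products of de novo purine synthesis and of purine nucleoside breakdown. Xanthophores store yellow pteridines, which are made from GTP, and carotenoids, which are taken up from the diet. Both cell types come from the neural crest, as do the black melanophores. In zebrafish, iridophore fate depends on the receptor tyrosine kinase Ltk. Most of these enzymes also act outside pigment cells: all dividing cells make purines, and pteridines yield the cofactor tetrahydrobiopterin used by neurons and liver.

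Levels are given as CPM, which are estimated read counts scaled to library size and a TMM factor, and log2 fold changes are pikfyve-delta8 minus wild type ± SE from edgeR's quasi-likelihood test. A gene is called at a Benjamini-Hochberg adjusted p under 0.05 over 21104 tested genes. Each sample held between 14677252 and 14949605 estimated counts. A floor of 3 counts lay at 0.191 to 0.218 CPM. Mutant samples differed more among themselves than wild-type samples did: the correlation of log2 CPM (Pearson's r over genes, which are no independent replicates) was 0.975 to 0.980 within pikfyve-delta8 and 0.991 to 0.992 within wild type. Of all tested genes 48.0% were called, 5295 higher and 4845 lower in pikfyve-delta8. With library size alone in place of TMM the split was 3824 higher and 6561 lower, and the median over all genes was -0.14 on the log2 scale, against 0.0039 with TMM.

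Of the 10 pigment genes 4 fell, 1 rose and 5 were not called. The purine nucleoside phosphorylase gene pnp4a, the carotenoid receptor gene scarb1, the xanthine dehydrogenase gene xdh and the aldehyde oxidase gene aox5 were lower in pikfyve-delta8, and the pteridine synthesis gene pts was higher. The share called, 5 of 10, was close to the 48.0% called among all genes. Of all genes 23.0% were called lower and 25.1% higher, and 5.77% were at least 2-fold lower, a size that pnp4a and scarb1 reached. The median log2 fold change of the 10 genes was -0.32. In these bulk samples fewer pigment cells, less RNA per pigment cell and changes in other cells that express these genes cannot be told apart.

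**Figure D1:**
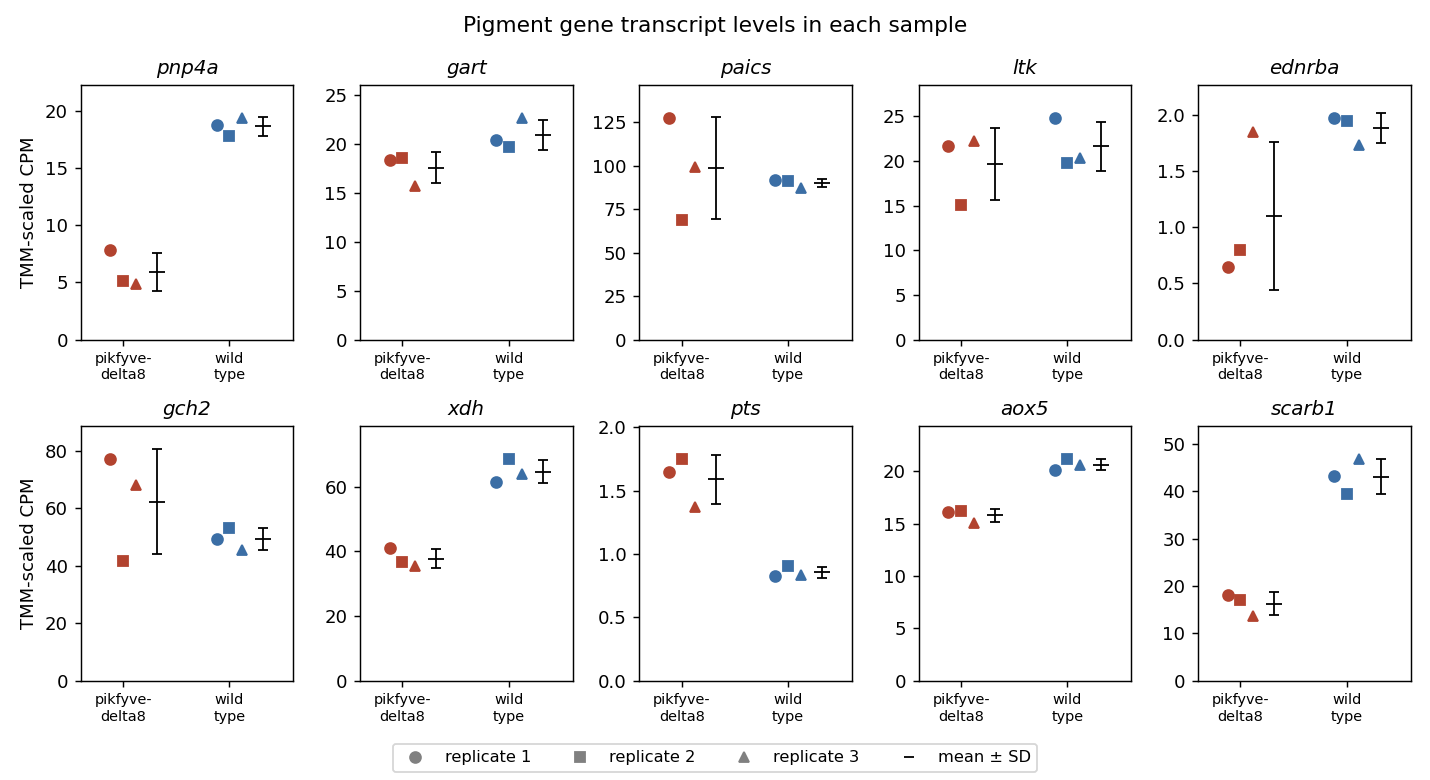
TMM-scaled CPM of each of the 10 pigment genes (y axis, from 0, with its own scale per gene) in the 3 pikfyve-delta8 samples (left) and the 3 wild-type samples (right) of each panel; marker shapes are replicate numbers and bars are mean ± SD. For pnp4a the mutants lie between 4.86 and 7.83 CPM and the wild-type samples between 17.7 and 19.3 CPM, while for paics, gch2 and ltk the genotypes overlap.

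First among the iridophore genes was gart, which encodes an enzyme with 3 activities in de novo purine synthesis. It had 18.4, 18.6 and 15.8 CPM in pikfyve-delta8 and 20.5, 19.8 and 22.7 CPM in wild type. All mutants lay below all wild-type samples, but by a small margin, and the gene was not called, with a log2 fold change of -0.25 ± 0.11 (95% interval -0.50 to -0.01, adjusted p = 0.0781 by edgeR). It was called lower with upper-quartile scaling (adjusted p = 0.0318), with library size alone (adjusted p = 0.0105) and on both FPKM scales (adjusted p = 0.0143 and 0.0146 by limma with pseudocounts of 1 and 0.1).

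The paics gene encodes the enzyme that joins carboxylation and aspartate addition later in the same pathway. It had 127, 69.0 and 99.4 CPM in pikfyve-delta8 and 91.7, 91.4 and 87.1 CPM in wild type. Replicate 2 of the mutants lay below every wild-type sample and the other mutants above them all, so the spread among mutants was 29.6% of their mean, against 2.86% in wild type. The log2 fold change was 0.13 ± 0.19 (95% interval -0.32 to 0.58, adjusted p = 0.607). Without pikfyve-delta8 replicate 2 paics was called higher, at 0.33 (adjusted p = 0.0245), and without pikfyve-delta8 replicate 1 its value was -0.097.

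The pnp4a gene (Gene ID 415192), an iridophore marker whose enzyme frees purine bases from nucleosides, had the largest fall of the 10. Its levels were 7.83, 5.10 and 4.86 CPM in pikfyve-delta8 and 18.7, 17.7 and 19.3 CPM in wild type. Every mutant held less than the lowest wild-type sample, and the log2 fold change was -1.65 ± 0.17, or 31.9% of the wild-type level (95% interval -2.03 to -1.27 on the log2 scale, adjusted p = 5.6e-05). The call held in all 16 alternative fits of this gene, with values of -1.90 to -1.54.

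Both iridophore receptors lacked a call. Ltk, required for iridophore specification, had 21.6, 15.1 and 22.3 CPM in pikfyve-delta8 and 24.8, 19.8 and 20.4 CPM in wild type, with overlapping genotypes. Its log2 fold change was -0.14 ± 0.16 (95% interval -0.49 to 0.21, adjusted p = 0.493), and it was 0.020 without pikfyve-delta8 replicate 2. The 95% intervals of ltk and pnp4a did not overlap.

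The endothelin receptor gene ednrba, needed for adult iridophores in zebrafish, was near the low end of detection, with 0.646, 0.801 and 1.85 CPM in pikfyve-delta8 and 1.97, 1.94 and 1.73 CPM in wild type. These were 9, 11 and 27 reads in the mutants and 31, 30 and 27 in wild type. Replicates 1 and 2 of the mutants lay below all wild-type samples, and replicate 3 lay within their range. The log2 fold change was -0.76 ± 0.37 (95% interval -1.58 to 0.06, adjusted p = 0.114). Without pikfyve-delta8 replicate 3 it was -1.38 and the gene was called lower (adjusted p = 0.00437), as it was with limma on log2(FPKM + 1) (adjusted p = 0.0488).

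On the xanthophore side, gch2 encodes the GTP cyclohydrolase that opens pteridine synthesis. It had 77.0, 41.7 and 68.3 CPM in pikfyve-delta8 and 49.2, 53.1 and 45.6 CPM in wild type. As for paics, replicate 2 of the mutants was below all wild-type samples and the other mutants above them. The log2 fold change was 0.34 ± 0.21 (95% interval -0.14 to 0.82, adjusted p = 0.214). Without pikfyve-delta8 replicate 2 it was 0.56 and the gene was called higher (adjusted p = 0.000854).

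The next enzyme of the pathway, 6-pyruvoyltetrahydropterin synthase, is encoded by pts (Gene ID 100073330). It was weakly expressed, with 1.65, 1.75 and 1.37 CPM in pikfyve-delta8 and 0.826, 0.907 and 0.833 CPM in wild type, or 23, 24 and 20 reads against 13, 14 and 13. All mutants lay above all wild-type samples, and pts rose by 0.89 ± 0.27 on the log2 scale (95% interval 0.29 to 1.49, adjusted p = 0.0209). DESeq2 made no call (adjusted p = 0.146), nor did edgeR once wild type replicate 1 (adjusted p = 0.0752), 2 (0.0595) or 3 (0.0752), or pikfyve-delta8 replicate 2 (0.0571), was left out.

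Xanthine dehydrogenase, the product of xdh (Gene ID 560486), oxidizes purines to uric acid and also acts on pterins. Its transcript stood at 41.1, 36.7 and 35.4 CPM in pikfyve-delta8 and 61.6, 68.5 and 63.9 CPM in wild type. The mutants clustered well below the wild-type samples, with a log2 fold change of -0.78 ± 0.08, or 58.3% of the wild-type level (adjusted p = 7.01e-05). A related molybdenum enzyme and xanthophore marker, aox5 (Gene ID 64265), had 16.1, 16.2 and 15.1 CPM in pikfyve-delta8 and 20.1, 21.1 and 20.6 CPM in wild type. Both genotypes were tight and apart, and aox5 fell by 0.39 ± 0.09 on the log2 scale (adjusted p = 0.00714).

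The scavenger receptor gene scarb1 (Gene ID 387260), through which zebrafish xanthophores take up carotenoids and the liver takes up HDL lipids, fell most after pnp4a. It had 18.2, 17.1 and 13.6 CPM in pikfyve-delta8 and 43.1, 39.5 and 46.8 CPM in wild type. All mutants lay far below the lowest wild-type sample, and the log2 fold change was -1.40 ± 0.12, or 37.8% of the wild-type level (adjusted p = 1.82e-05). The calls of xdh, aox5 and scarb1 held in all 16 alternative fits of each gene. Across the 10 genes, the genotypes did not overlap for 5 lower and 1 higher, against 28.7% of all tested genes lower, 30.1% higher and 58.8% in either direction.

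**Figure D2:**
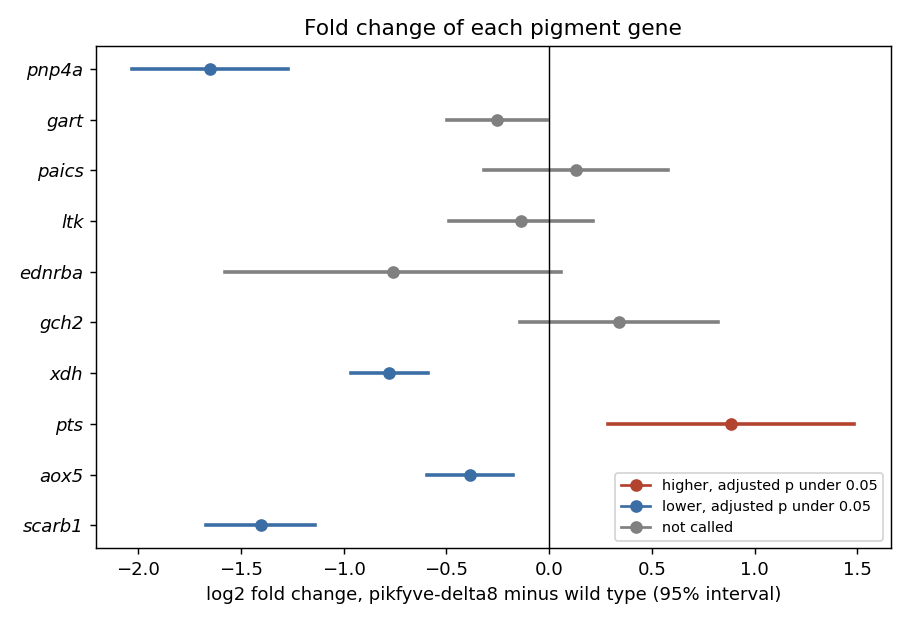
Log2 fold change of each pigment gene, pikfyve-delta8 minus wild type (x axis), as a point with its 95% interval, coloured by call. The intervals of pnp4a, scarb1, xdh and aox5 lie below 0 and that of pts above 0. The interval of gart ends just below 0, yet the gene was not called after adjustment over all genes.

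The spread among mutants differed from gene to gene. Its coefficient of variation was 59.6% for ednrba, 29.6% for paics, 29.5% for gch2, 27.8% for pnp4a and 20.2% for ltk, against 3.86% for aox5 and 7.86% for xdh. The median over the 10 genes was 17.4% in pikfyve-delta8 and 6.21% in wild type, beside 13.1% and 7.06% over all tested genes. Among the mutants, replicate 3 was the lowest for 6 of the 10 genes, replicate 2 for 3 (paics, ltk and gch2) and replicate 1 for ednrba. Of all tested genes 35.9% were lowest in replicate 3, 31.0% in replicate 2 and 33.1% in replicate 1. Of 15 genes of de novo purine synthesis 9 were lowest in replicate 2 and 6, gart among them, in replicate 3. Of these, atic, the enzyme of the last steps to IMP, had 55.5, 37.6 and 48.9 CPM in pikfyve-delta8, and adsl, the adenylosuccinate lyase gene, had 81.7, 57.7 and 66.9 CPM.

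**Figure D3:**
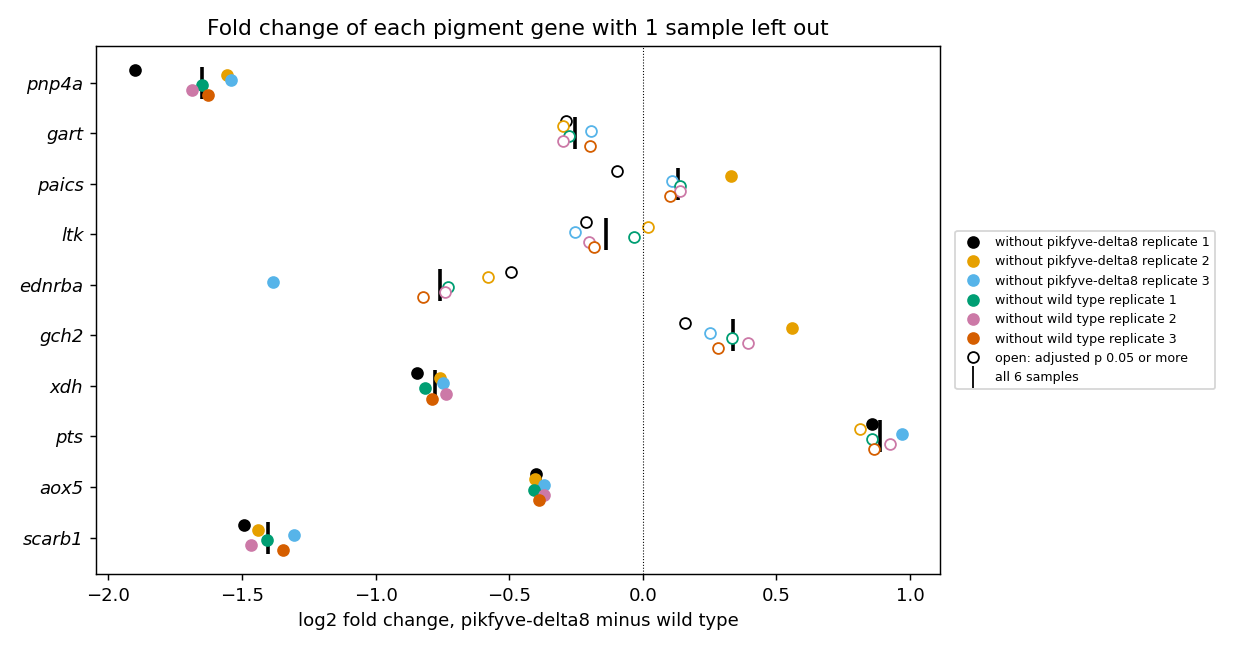
Log2 fold change of each pigment gene, pikfyve-delta8 minus wild type (x axis), with all 6 samples (black bar) and with 1 sample left out (points, coloured by the sample; open where the adjusted p was 0.05 or more). The points of pnp4a, xdh, aox5 and scarb1 stay filled and below 0, whereas paics and ltk cross 0.

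Levels of different genes were compared per transcript length, on the deposited FPKM scale. In pikfyve-delta8 the order was paics (72.9 ± 21.9 FPKM), gch2 (37.9 ± 11.7), xdh (6.76 ± 0.45), scarb1 (6.55 ± 0.74), gart (5.56 ± 0.29), aox5 (4.00 ± 0.02), pnp4a (3.74 ± 0.99), ltk (2.63 ± 0.69), pts (2.24 ± 0.19) and ednrba (0.870 ± 0.557; SD, n = 3 each). In wild type it was paics (73.4 ± 2.5 FPKM), gch2 (33.0 ± 2.2), scarb1 (18.8 ± 1.7), pnp4a (13.0 ± 0.7), xdh (12.8 ± 0.5), gart (7.34 ± 0.57), aox5 (5.78 ± 0.05), ltk (3.17 ± 0.46), ednrba (1.62 ± 0.12) and pts (1.34 ± 0.05; SD, n = 3 each). Thus pnp4a stood in place 7 in the mutants and in place 4 in wild type. Neighbours whose samples overlapped were xdh and scarb1, aox5 and pnp4a, pnp4a and ltk, and ltk and pts in the mutants, and pnp4a and xdh in wild type.

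Each enzyme was then set beside its relatives. Purine nucleoside phosphorylase transcripts went both ways: pnp5b rose to 66.4 ± 8.0 CPM in pikfyve-delta8, against 29.3 ± 1.1 CPM in wild type (adjusted p = 1.48e-05 by edgeR), and pnp6 fell to 7.94 ± 0.45 CPM, against 12.9 ± 0.7 CPM (adjusted p = 0.000863). Transcripts of pnp4b were at 93.0 ± 11.5 CPM in pikfyve-delta8 and 74.3 ± 1.2 CPM in wild type (adjusted p = 0.0158). For pnp4b no call remained with library size alone (adjusted p = 0.158), on both FPKM scales (0.187 and 0.189) or once wild type replicate 1 (0.0636), 2 (0.0651) or 3 (0.0541) was left out. With pnp5a at 163 ± 29 CPM in pikfyve-delta8 and 186 ± 31 CPM in wild type (adjusted p = 0.345), pnp4a made up 1.68% to 2.51% of the summed FPKM of these 5 genes in the mutants and 6.24% to 7.50% in wild type.

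Of the GTP cyclohydrolase transcripts, gch2 supplied 83.1% to 93.1% of the FPKM in pikfyve-delta8 and 83.3% to 87.9% in wild type, and gch1 was at 3.09 ± 0.88 CPM in pikfyve-delta8 and 3.25 ± 0.74 CPM in wild type (adjusted p = 0.840). The related oxidase gene aox6 fell to 9.27 ± 1.43 CPM in pikfyve-delta8, against 22.4 ± 2.0 CPM in wild type (log2 fold change -1.28 ± 0.13, adjusted p = 5.9e-05). Of the summed FPKM of the pair, aox5 held 63.6% to 69.4% in the mutants and 50.3% to 53.4% in wild type. Among endothelin receptors ednraa was the most abundant, at 35.1 ± 1.6 CPM in pikfyve-delta8 and 28.7 ± 2.2 CPM in wild type (adjusted p = 0.0208). It was not called under upper-quartile scaling (adjusted p = 0.0576), library size alone (0.212), DESeq2 (0.0664) or either FPKM scale (0.218 and 0.217), nor without wild type replicate 2 (0.0505) or 3 (0.111) or pikfyve-delta8 replicate 1 (adjusted p just above 0.05). Transcripts of ednrab and ednrbb did not pass the filter on low counts.

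**Figure D4:**
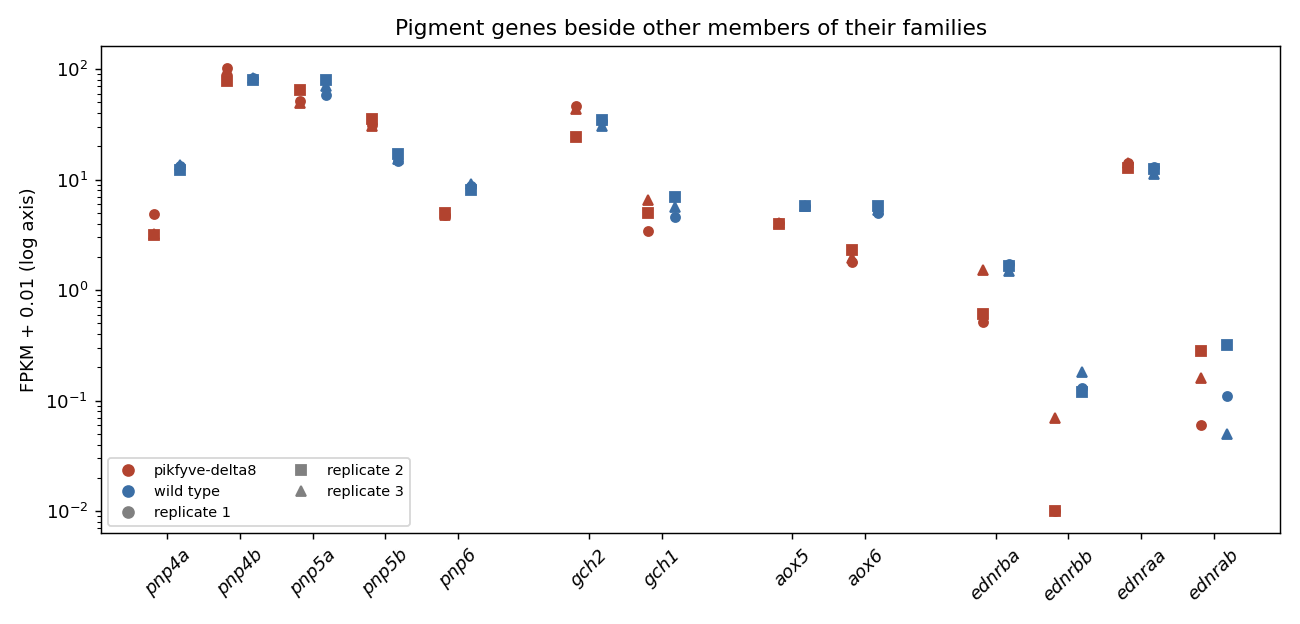
FPKM + 0.01 on a log axis for pnp4a, gch2, aox5 and ednrba beside other genes of their families, in the pikfyve-delta8 samples (left of each pair) and the wild-type samples (right); shapes are replicate numbers. The levels of pnp4a, pnp6, aox5 and aox6 are lower and those of pnp5b higher in all mutants, and ednrbb is near 0 in all samples.

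The wider pathways held calls in both directions, as did all tested genes, with 25.1% called higher and 23.0% lower. These lists were written with earlier results of these data known, and no list was tested as a set. Of 15 genes of de novo purine synthesis 3 rose and 3 fell, with a median log2 fold change of -0.04, beside 0.0039 for all genes. The risers were ppat, which encodes the first committed enzyme (37.6 ± 3.2 CPM in pikfyve-delta8 and 28.2 ± 1.4 CPM in wild type, adjusted p = 0.00398), atic (47.3 ± 9.1 CPM in pikfyve-delta8 and 30.8 ± 1.8 CPM in wild type, adjusted p = 0.00378) and impdh1a, an IMP dehydrogenase gene (28.8 ± 1.8 CPM in pikfyve-delta8 and 17.9 ± 0.9 CPM in wild type, adjusted p = 0.000289). The second IMP dehydrogenase gene, impdh1b, fell to 39.8 ± 1.7 CPM in pikfyve-delta8, against 53.1 ± 1.8 CPM in wild type (adjusted p = 0.00123), as did adss2 of the AMP branch (log2 fold change -0.63). The third lower gene was gmps, which encodes GMP synthetase. Its adjusted p of 0.0275 rose above 0.05 without wild type replicate 1 (0.108), 2 (0.0836) or 3 (0.0546). Without pikfyve-delta8 replicate 2 there were 5 risers, and 6 genes fell with library size alone. Levels of pfas and adsl were 23.2 ± 2.5 and 68.7 ± 12.1 CPM in pikfyve-delta8 and 26.1 ± 1.9 and 71.6 ± 6.7 CPM in wild type, with no call.

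Proliferation markers were set beside these purine genes for comparison. Counts here stand beside 25.1% of all tested genes called higher and 23.0% called lower. Of 17 proliferation markers 16 fell and 0 rose by edgeR, 0 rose at an unadjusted p under 0.05 and 0 rose by DESeq2. Their median was -0.92, and their summed FPKM was 279 to 346 in pikfyve-delta8 and 622 to 645 in wild type. Their part in the purine gene levels was not tested. Of 26 genes of purine salvage and breakdown 11 rose and 7 fell, with a median of 0.24. The AMP deaminase gene ampd3b rose by 1.04 on the log2 scale (adjusted p = 2.88e-05). The number of risers was 6 without wild type replicate 2 or 3, 7 without wild type replicate 1, and 6 with library size alone.

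Among 13 tested pteridine and tetrahydrobiopterin genes 2 rose and 5 fell, with a median of -0.05. The shares over all tested genes were 25.1% higher and 23.0% lower. Beside pts, the riser was the sepiapterin reductase gene spra, at 12.7 ± 2.3 CPM in pikfyve-delta8 and 7.61 ± 0.76 CPM in wild type (adjusted p = 0.0039). Mycbp2, whose loss disturbs xanthophore pigment in zebrafish, was at 115 ± 13 CPM in pikfyve-delta8 and 138 ± 4 CPM in wild type (adjusted p = 0.0272). Leaving out wild type replicate 1 (adjusted p = 0.0883), 2 (0.0611) or 3 (0.0914), or pikfyve-delta8 replicate 1 (0.0612) or 2 (0.0709), ended that call. The regulator gchfr and the recycling genes pcbd1 and qdpra were not called, at 7.50 ± 1.33, 28.1 ± 2.3 and 10.1 ± 0.9 CPM in pikfyve-delta8 and 5.92 ± 0.88, 26.6 ± 2.5 and 10.5 ± 0.8 CPM in wild type. Transcripts of sprb, at 0.377 ± 0.142 CPM in pikfyve-delta8 and 0.771 ± 0.200 CPM in wild type, did not pass the filter on low counts.

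Of 15 genes listed for carotenoid uptake and cleavage 4 rose and 6 fell, with a median of -0.20. Over all tested genes 25.1% were called higher and 23.0% lower. The count of lower genes in the list was 2 without wild type replicate 2 or 3. The risers, named after their values were seen, were plin6, stard3, scarb2c and scarb2a. Scarb2a lost its call in 9 of 16 alternative fits. A carotenoid role of stard3 and the scarb2 genes was not tested. Plin6, a perilipin of carotenoid droplets in xanthophores, rose to 15.9 ± 0.6 CPM in pikfyve-delta8, against 7.81 ± 0.98 CPM in wild type (log2 fold change 1.03 ± 0.12, adjusted p = 0.000129), opposite to scarb1. The carotenoid cleavage gene bco2a fell by 0.69 on the log2 scale (adjusted p = 0.00144). A second cleavage gene, bco1, had 45.8, 21.3 and 24.4 CPM in pikfyve-delta8 and 61.1, 55.1 and 62.7 CPM in wild type (adjusted p = 0.0292). No call remained for bco1 when all genes were tested regardless of count (adjusted p = 0.0545), or once wild type replicate 1 (0.0739), 2 (0.0561) or 3 (0.0752), or pikfyve-delta8 replicate 3 (0.138), was left out. The remaining cleavage genes of the list, named after their values were seen, were bco1l, bco2b and bco2l. Bco1l had 28.7, 13.8 and 12.5 CPM in pikfyve-delta8 and 37.8, 43.6 and 41.5 CPM in wild type (log2 fold change -1.16 ± 0.31, adjusted p = 0.0204). Leaving out wild type replicate 2 (adjusted p = 0.0556) or 3 (0.0524), or pikfyve-delta8 replicate 3 (0.0758), ended the call of bco1l. Neither bco2b nor bco2l was called (adjusted p = 0.479 and 0.187).

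Other cells that use these genes were looked at through their markers. Their counts stand beside 25.1% of all tested genes called higher and 23.0% called lower. Of 18 liver genes 7 rose and 4 fell, with a median of 0.12 and a summed FPKM of 17535 to 20351 in pikfyve-delta8 and 20912 to 21406 in wild type. The mean liver sum in pikfyve-delta8 was 0.90 of that in wild type. FPKM carry no TMM factor, and with library size alone the median of all genes was -0.14 on the log2 scale. The count of lower liver genes was 1 without any 1 of the wild-type samples. The higher liver genes, named after their values were seen, were cp, fgb, fgg, fga, serpina1l, hpda and f2. The lower ones, also named so, were a1cf, rbp4, serpina1 and tfa. Cp rose most, by 2.53 on the log2 scale (adjusted p = 7.53e-05 by edgeR). A1cf fell most, by 0.59 (adjusted p = 0.000540). Fabp10a, apoa1a and apoa2 were not called (adjusted p = 0.0740, 0.404 and 0.392). The liver markers' part in the levels of scarb1 and xdh was not tested. Of 12 markers of the retinal pigment epithelium 1 rose and 5 fell, with a median of -0.54 and a summed FPKM of 185 to 223 in pikfyve-delta8 and 253 to 264 in wild type, and 3 fell without wild type replicate 1 or 3. That list shares bco1 with the carotenoid genes.

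**Figure D5:**
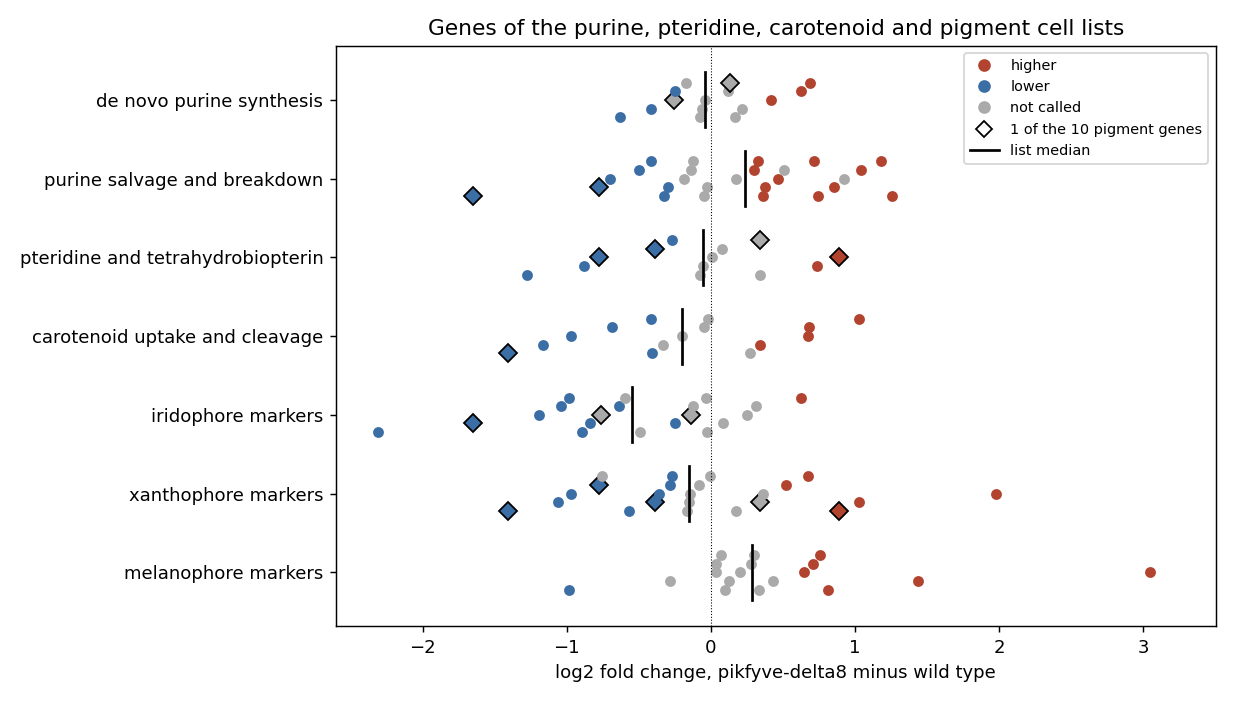
Log2 fold change, pikfyve-delta8 minus wild type (x axis), of every tested gene of 7 lists; diamonds are the 10 pigment genes, colours are calls and black bars are list medians. The iridophore list has 9 of 20 genes called lower and 1 higher, and the melanophore list 1 of 18 lower and 6 higher. Over all tested genes 23.0% were called lower and 25.1% higher.

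Markers of whole pigment cells were compared last, again beside 23.0% of all tested genes called lower and 25.1% called higher. Of 20 tested iridophore markers, 3 of which are among the 10 genes, 9 fell and 1 rose, with a median of -0.55 and a summed FPKM of 143 to 175 in pikfyve-delta8 and 232 to 244 in wild type. Without the 10 pigment genes 8 of 17 fell and 1 rose, with a median of -0.49. The LIM protein gene fhl2b fell to 1.24 ± 0.62 CPM in pikfyve-delta8, against 6.16 ± 0.96 CPM in wild type (adjusted p = 0.000311). The other lower markers, named after their values were seen, were akap12a, lypc, defbl1, apoda.1, gbx2, mpv17 and gmps, and the higher one was atic. Tfec, a transcription factor of iridophore precursors, was not called, at 4.22 ± 0.76 CPM in pikfyve-delta8 and 3.40 ± 0.31 CPM in wild type (adjusted p = 0.209). Nor was the Ltk ligand gene alkal2b, at 0.711 ± 0.093 CPM in pikfyve-delta8 and 1.00 ± 0.42 CPM in wild type (adjusted p = 0.312). Gbx2, one of the lower markers above, fell by 0.64 on the log2 scale (adjusted p = 0.00276 by edgeR). The ligand gene alkal1 did not pass the filter on low counts.

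Of 23 xanthophore markers, 5 of which are among the 10 genes, 5 rose and 9 fell, with a median of -0.15. Without the 10 pigment genes 6 of 18 fell and 4 rose, with a median of -0.15. Of all tested genes 23.0% were called lower and 25.1% higher. The summed FPKM of the 23 markers was 129 to 170 in pikfyve-delta8 and 188 to 196 in wild type. The count of lower genes was 3 without wild type replicate 1 and 5 without wild type replicate 2. Lower genes outside the 10, named after their values were seen, were slc2a11a, bco1, pax7a, slc22a7a, sox5 and mycbp2. Their log2 fold changes were -1.06, -0.97, -0.57, -0.36, -0.29 and -0.27 (adjusted p = 0.0129 to 0.0307 by edgeR). All of these lost their call without wild type replicate 1 (adjusted p = 0.0515 to 0.0980). The 4 risers outside the 10, also named after their values were seen, were il34, plin6, slc2a15b and pax7b. Opposite to pax7a, pax7b rose by 0.52 on the log2 scale (adjusted p = 0.00298 by edgeR). The call of pax7b held in all 16 alternative fits. The largest riser was il34, a ligand of the Csf1 receptors, which rose by 1.97 on the log2 scale (adjusted p = 3.28e-05). As a ligand gene, il34 need not follow the amount of xanthophore RNA. The receptor gene csf1ra, needed by xanthophores and shared with macrophages, was at 9.71 ± 2.91 CPM in pikfyve-delta8 and 7.56 ± 0.75 CPM in wild type (adjusted p = 0.192), and was called higher without pikfyve-delta8 replicate 1 (adjusted p = 0.00798). The sugar transporter gene slc2a15b rose to 9.00 ± 1.43 CPM in pikfyve-delta8, against 5.64 ± 0.20 CPM in wild type (adjusted p = 0.00497). Estimates for csf1ra and slc2a15b were not all whole numbers, so reads were shared with similar genes and these levels are uncertain.

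Csf1ra was also in a list of macrophage markers. Of 15 tested 8 rose, 2 fell and 5, csf1ra among them, were not called, with a median of 0.86 and a summed FPKM of 1553 to 1653 in pikfyve-delta8 and 1107 to 1188 in wild type. For this list and the melanophore list below, the shares over all tested genes were 25.1% higher and 23.0% lower. The risers with the smallest adjusted p were grn1 and ctss2.1, which rose by 1.93 and 2.20 on the log2 scale (adjusted p = 2.6e-06 and 9.56e-06 by edgeR). The lower ones were mpeg1.1 and marco. Levels of mpeg1.1 were 1.97 ± 0.20 CPM in pikfyve-delta8 and 7.16 ± 0.66 CPM in wild type (adjusted p = 3.37e-05). Marco fell by 0.84 on the log2 scale (adjusted p = 0.0269), and was not called without wild type replicate 1 (0.0629), 2 (0.102) or 3 (0.0576). The complement genes c1qa, c1qb and c1qc and the antigen presentation gene cd74a did not pass the filter on low counts. Of c1qb there were 0, 0 and 2 reads in pikfyve-delta8 and 7, 8 and 7 in wild type, and it was called lower when all genes were tested regardless of count (adjusted p = 0.0138) and by DESeq2 (adjusted p = 0.0467). The other 3 were not called in either fit. The part of these cells in the csf1ra level was not tested. Of 18 melanophore markers 6 rose and 1 fell, with a median of 0.29, led by the tetraspanin gene tspan36, which rose by 3.05 on the log2 scale (adjusted p = 2.68e-07). Their summed FPKM was 308 to 377 in pikfyve-delta8 and 128 to 137 in wild type. In all 7 were called, but 4 without wild type replicate 1 or 3. The sum weights genes by their level, leans largely on tspan36 and does not show a rise of every marker. With limma on log2(FPKM + 0.1) tspan36 rose by 2.90, and the next largest rise was 1.25, for mlana. With all 6 samples dct, tyrp1b, tyr and oca2 were not called (adjusted p = 0.0810, 0.0991, 0.759 and 0.172 by edgeR). The melanosome matrix gene pmela rose by 0.65 on the log2 scale (adjusted p = 0.000319). The marker called lower was mitfa, at 0.688 ± 0.213 CPM in pikfyve-delta8 and 1.37 ± 0.39 CPM in wild type (adjusted p = 0.0420 by edgeR). Mitfa was not called by DESeq2 (adjusted p = 0.148) or with the replicate block (0.0623). Nor was mitfa called without wild type replicate 1 (0.0880) or 3 (0.182), or pikfyve-delta8 replicate 2 (0.0992) or 3 (0.0943).

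Of 14 genes of neural crest progenitors 5 rose and 4 fell, with a median of 0.21. Over all tested genes 25.1% were called higher and 23.0% lower. Among the lower crest genes was mitfa, which the melanophore list also holds. The crest regulator genes twist1a and snai2 rose by 0.81 and 0.56 on the log2 scale and tfap2a fell by 0.35 (adjusted p = 0.000222, 0.000182 and 0.00494). The count of lower crest genes was 2 without any 1 of the wild-type samples or pikfyve-delta8 replicate 2. Of 7 tested endothelin genes 3 rose and 0 fell by edgeR, with a median of 0.29. At an unadjusted p under 0.05, and with DESeq2, 0 fell, while 1 fell with limma on log2(FPKM + 1) and 1 without pikfyve-delta8 replicate 3, which was ednrba. The count of risers was 1 without wild type replicate 2 or 3 or pikfyve-delta8 replicate 1. The converting enzyme gene ece1 rose to 42.4 ± 2.9 CPM in pikfyve-delta8, against 18.7 ± 0.7 CPM in wild type (adjusted p = 9.56e-06). The endothelin gene edn3b, with 0.0482 ± 0.0417 CPM in pikfyve-delta8 and 0.107 ± 0.098 CPM in wild type, did not pass the filter on low counts.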

How the data were processed

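Per the labels' protocols, mRNA was isolated from kit-purified RNA, fragmented and made into circularized libraries. Tools listed in the submitters' processing notes are RSEM 1.3.1, Bowtie2 and DESeq2 1.4.5, with the build GRCz11 and no role or order. Per the file headers, the deposited table gives read counts, FPKM and TPM per sample. The deposited counts are estimated counts, 10.7% to 11.6% of them not whole (tolerance 0.005). The deposited FPKM values were used to compare genes per length and to sum lists per sample, and the deposited TPM values were not tested. FPKM carry no TMM factor, so sums compared between genotypes also hold that difference in scaling. Counts of the 10 genes were whole in every sample. Strandedness is not given in the labels, so antisense reads cannot be told apart.

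Counts were rounded and tested with edgeR 4.0.16 (R 4.3.3): filterByExpr, TMM and a robust two-sided quasi-likelihood F-test with genotype as the only term, adjusted over all tested genes. The SE is the log2 fold change divided by the square root of F. Alternatives used DESeq2 1.42.0 and limma 3.58.1. The procedure was tested on simulated data. A first requirement on the share of changed genes recovered was not met for genes lowered 2-fold. It was replaced, after this was seen, by one on fold bias and false calls, which was met. The simulation changed 200 genes and gave both genotypes the same dispersion. In the data 48.0% of tested genes were called and mutants varied more than wild type. The simulation therefore does not check the procedure in that setting. Figures used matplotlib 3.10.9. Floors cover counting error only. Members and lists were chosen with earlier results of these data known. Named genes are the 10, their pathway partners fixed by name, and genes with the smallest p in a list, up to 4 per list and 2 in each direction. Not every gene that this rule picks is named, and none is named for the proliferation list. Other genes were named after their values were seen. Same-numbered samples were not treated as pairs.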

Additional observations from a re-analysis of the deposited data

How the results depend on the processing

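The calls and directions of pnp4a, xdh, aox5 and scarb1 were the same under all 16 alternative fits. The count of pigment genes called higher was 0 with DESeq2, against 1, and ran from 0 to 2 with each sample left out. At an adjusted p under 0.05 and at least a 2-fold change, 0 pigment genes were higher and 2 lower, 2 in all, and over all genes 1569 were higher and 1218 lower, 2787 in all. The log2 fold change of gart was called at -0.32 with upper-quartile scaling, -0.40 with library size alone, and -0.35 and -0.39 with pseudocounts of 1 and 0.1 on the FPKM scale. For paics the value was -0.010 with library size alone, -0.056 and -0.058 on the FPKM scales, and -0.097 to 0.33 with each sample left out. Values with each sample left out were -0.25 to 0.020 for ltk, -1.38 to -0.49 for ednrba, 0.16 to 0.56 for gch2 and 0.81 to 0.97 for pts. With a pseudocount of 1 ednrba was called at -0.52, and with DESeq2 pts stood at 0.88 without a call. With library size alone the median over all genes also moved, to -0.14 on the log2 scale. The cause of the shifts of single genes was not tested. Deviations of same-numbered samples from their group means correlated at -0.07, 0.05 and -0.05. Those of differently numbered samples correlated at -0.097 to 0.14. These values show no pairing by replicate number. They cannot exclude one, because deviations within a group of 3 are not independent. With the replicate block 9575 genes were called, against 10140, and 5 pigment genes, 1 higher and 4 lower. Samples held 9 to 31 reads of pts and ednrba, which limits counting precision; its part in their changes of call was not tested.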
